A study of Drosophila melanogaster with 6 samples.

Results

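The salivary glue genes Sgs1, Sgs3, Sgs4, Sgs5, Sgs7 and Sgs8 were followed in eye-antennal imaginal discs of Drosophila melanogaster, the larval tissue that forms the eye, antenna and head capsule. They are the 6 rows of a count table of 16727 genes that carry these symbols. The 6 were picked because their values were known to differ between libraries and days, so those values are given as a description and carry no test. Discs came from larvae of genotype y w; +/+; +/+ reared at 25 °C on food made with an erg2 mutant yeast, which does not supply the sterols for moulting hormone, so that the larvae did not pupate. All 6 libraries share this genotype and this food. In 3 libraries the discs were dissected 5 days after egg laying, while still growing, and in 3 libraries 11 days after egg laying, after growth was completed. Each library held at least 30 pooled discs. Whether the libraries of one day are separate cultures is not stated, so p-values measure only the spread between these libraries, which may be technical. The days also differ in larval age and in time on this food, and these cannot be separated from growth arrest.

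Glue proteins are made in the salivary glands of the last larval stage. The moulting hormone ecdysone switches their genes on in the second part of that stage, and a later, stronger pulse switches them off and triggers the release of the stored secretion, which fixes the puparium to its support. Sgs1, Sgs3 and Sgs4 encode mucin-like proteins with long repeats that carry many sugar chains, whereas Sgs5, Sgs7 and Sgs8 encode small proteins without such repeats. Imaginal discs are not known as a source of glue, and the salivary glands lie close to them at the front of the larva.

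Polyadenylated RNA was read as 3′ tags, so that a transcript counts about once whatever its length, and levels of different genes are compared here per tag without division by length. Total counts ranged from 6542782 to 7950251 at day 5 and from 7670180 to 9049513 at day 11. Levels are CPM, each count as a share of its library's total over the 8010 genes tested, with the TMM scaling of edgeR. All 15 listed eye-antennal disc markers had counts, with summed levels of 1089 to 1356 CPM at day 5 and 784 to 1274 CPM at day 11. Single markers changed within these sums. Between the days 1 of the 15 rose and 5 fell (edgeR, adjusted p below 0.05), or 40.0%, beside 37.0% of all genes tested.

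The genes lie at 4 places in the genome (annotation of Ensembl release 115, dm6 coordinates). Sgs8, Sgs7 and Sgs3 form a cluster on chromosome 3L. Sgs8 runs on the minus strand from 11508967 to 11509394, Sgs7 on the plus strand from 11509861 to 11510247, and Sgs3 on the plus strand from 11512221 to 11513402. The starts of Sgs8 and Sgs7 face away from each other and are 467 bases apart, and the start of Sgs3 is 2360 bases beyond that of Sgs7. Sgs1 is on chromosome 2L from 4937409 to 4941423, Sgs5 on 3R from 17595362 to 17596112 and Sgs4 on X from 3250089 to 3251040, each on the plus strand. Sgs4 sits inside dnc, a phosphodiesterase gene on the same strand, and overlaps 0 of its annotated exons. The other 5 genes overlap no annotated gene. Transcripts range from 321 nt for Sgs7 and 359 nt for Sgs8 to 3950 nt for Sgs1.

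A shared gene structure links 4 of the 6. In Sgs1, Sgs3, Sgs7 and Sgs8 the first intron, of 65 to 73 bases, splits the coding region after exactly 28 bases. A first coding piece of 28 bases is annotated in 60 of 11103 protein-coding genes with a spliced coding region, or 0.54%. Sgs4 has no intron, and Sgs5 has 3 exons with a first coding piece of 268 bases. Eig71Ee, a gene of the 71E puff whose product is known both as a salivary glue protein and as a part of the haemolymph clot, also has a first piece of 28 bases.

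Glue tags were scarce at day 5 and present in every day 11 library. The 6 genes together had 62, 144 and 39 counts in day 5 replicates 1 to 3 and 968, 724 and 8427 counts in day 11 replicates 1 to 3. In CPM the sums were 8.20, 17.4 and 4.93 at day 5 and 103.6, 111.3 and 1225 at day 11. The lowest day 11 library stood 5.97-fold above the highest day 5 library, so the days did not overlap. Day 11 replicate 3 stood 11.4-fold above the mean of the other day 11 libraries, and day 5 replicate 2 stood 2.64-fold above the mean of the other day 5 libraries. Day means were 10.2 ± 6.43 and 480.0 ± 645.3 CPM (SD, n = 3 each), with a ratio of 47.2. Without day 11 replicate 3 the ratio was 10.6, and without day 5 replicate 2 it was 73.1. In whole-tissue RNA of this kind, fewer cells of a type and less RNA per cell cannot be told apart.

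Glue RNA was a small part of each library even where it was highest. It made up 0.104% of all counts in day 11 replicate 3 (exact 95% binomial interval 0.102 to 0.106%). The shares were 0.0107% and 0.00944% in day 11 replicates 1 and 2. At day 5 they were 0.000948%, 0.00181% and 0.000545%. These intervals cover counting error only, since tags without molecular identifiers are not independent molecules.

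Sgs3, the largest contributor to the glue tags and a mucin, had 4.10, 5.42 and 2.40 CPM at day 5 and 33.1, 30.9 and 408.1 CPM at day 11. Its means were 3.98 ± 1.51 and 157.3 ± 217.1 CPM (SD, n = 3 each), a ratio of 39.6. Day 11 replicate 3 alone set most of the day 11 mean, and the ratio of means was 8.04 without it.

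Sgs4, the mucin gene on X, had 0.529, 1.08 and 0.127 CPM at day 5 from 4, 9 and 1 counts. At day 11 it had 6.42, 7.38 and 56.8 CPM from 60, 48 and 391 counts. The lowest day 11 library was 5.92-fold above the highest day 5 library, and the ratio of means was 40.6, or 11.9 without day 11 replicate 3 and 71.8 without day 5 replicate 2. The host gene dnc had 43.5 to 57.2 CPM at day 5 and 69.5 to 84.4 CPM at day 11, and its level in day 11 replicate 3 was the lowest of that day. The sources used here do not give the treatment of unspliced dnc RNA over Sgs4.

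Sgs1, the longest of the mucin genes, had 0 counts in all day 5 libraries and 34, 14 and 108 counts at day 11, or 3.64, 2.15 and 15.7 CPM. Taking 3 counts per library as the floor, at a mean of 0.379 CPM, its day 11 mean of 7.16 ± 7.43 CPM (SD, n = 3) was at least 18.9-fold higher, and at least 7.63-fold higher without day 11 replicate 3. Sgs1 was 1.54% of all glue tags at day 11. At that share the 245 glue tags of day 5 would hold 3.78 Sgs1 tags, and 0 of 245 allows a share of up to 1.49% (exact 95% binomial interval). That limit lies just below the pooled day 11 share and above the 1.28% of day 11 replicate 3, which supplied 8427 of the 10119 day 11 glue tags. It lies within the interval of day 11 replicate 2 (1.06 to 3.22%) and below that of day 11 replicate 1 (2.44 to 4.87%). A smaller share of Sgs1 at day 5 was thus resolved at this depth against day 11 replicate 1 only, not against replicates 2 and 3.

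Among the small glue proteins, Sgs7 had 2.25, 4.58 and 1.39 CPM at day 5 and 25.8, 37.2 and 383.5 CPM at day 11. Its neighbour Sgs8 had 0.926, 3.13 and 0.253 CPM at day 5 and 17.6, 19.7 and 188.3 CPM at day 11. Both genes were highest in day 5 replicate 2 and in day 11 replicate 3 of their day, with no overlap between days. The ratio of means was 54.3 for Sgs7, or 11.5 without day 11 replicate 3 and 81.8 without day 5 replicate 2. For Sgs8 it was 52.3, or 12.9 without day 11 replicate 3 and 127.5 without day 5 replicate 2.

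Sgs5 had 0.397, 3.13 and 0.759 CPM at day 5 and 17.1, 14.0 and 172.7 CPM at day 11, a ratio of means of 47.5. Without day 5 replicate 2, which held 26 of its 35 day 5 counts, the ratio was 117.5, and without day 11 replicate 3 it was 10.9. In all 6 genes the lowest day 11 library was above the highest day 5 library. The same held for 2051 of 8010 genes tested, or 25.6%, and nothing is read from the members' count because the genes were chosen on this contrast. All 6 passed the filter on low counts. Only Sgs3 and Sgs7 would have passed it on their day 5 counts. Sgs1, Sgs4, Sgs5 and Sgs8 passed only because of their high day 11 libraries.

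**Figure D1:**
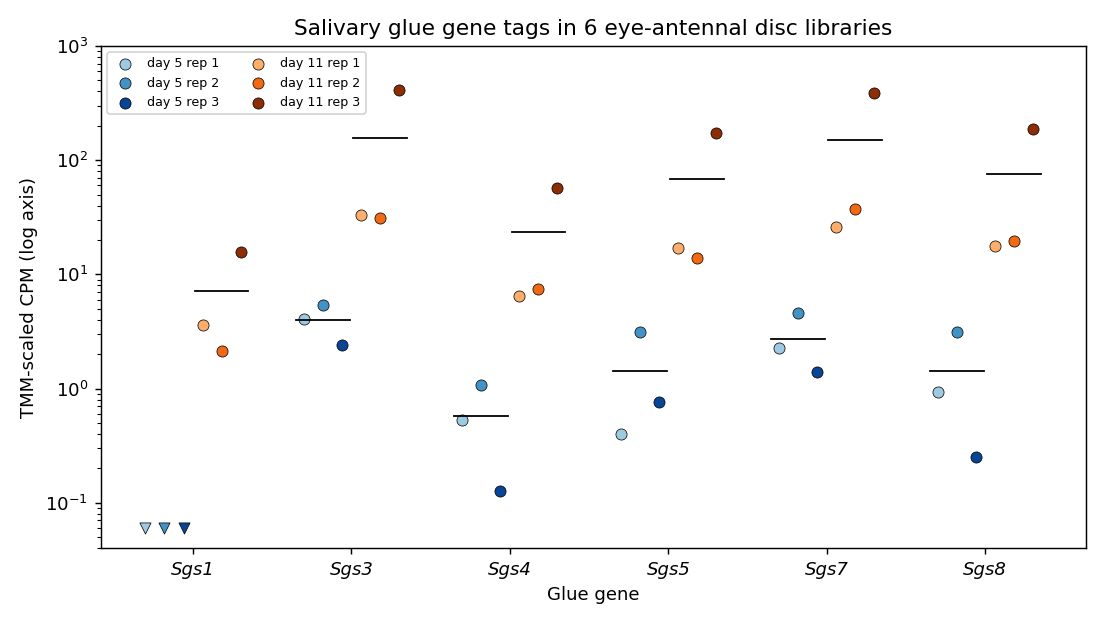
TMM-scaled CPM of each glue gene (log axis) in the 3 day 5 libraries (blue) and the 3 day 11 libraries (orange to brown); horizontal lines are day means and triangles at the bottom mark 0 counts. Every day 11 point lies above every day 5 point of its gene, and day 11 replicate 3 lies 5.42 to 12.8-fold above the mean of the other day 11 libraries.

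The fitted log2 fold changes from day 5 to day 11, given as a description, were 5.28 for Sgs4 (SE 1.46), 5.30 for Sgs3 (SE 1.57) and 5.52 for Sgs5 (SE 1.69). They were 5.66 for Sgs8 (SE 1.66) and 5.74 for Sgs7 (SE 1.64). The median of the 6 was 5.59, and 5.41 with Sgs1 set at its lower bound, beside a median of -0.0065 over all genes tested. The coefficient of variation among day 11 libraries was 103.7 to 138.0% for the 6 genes. Its median over 6299 tested genes with a day 11 mean of at least 5 CPM was 15.7%. Such a spread was not particular to glue: 21 non-members were at or above the lowest of the 6. The fat body gene Lsp2, at 151.0%, exceeded them all.

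The make-up of the glue tags changed much less than their amount. In each of the 6 libraries Sgs3 and Sgs7 were the first and second most abundant, in either order, and Sgs1 was the least abundant. Sgs3 made up 31.9%, 27.8% and 33.3% of the glue tags in day 11 replicates 1 to 3. Sgs7 made up 24.9%, 33.4% and 31.3%. The order of Sgs3 and Sgs7 was reversed in day 11 replicate 2, and their day 11 means were 157.3 and 148.8 CPM.

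Next came Sgs8, with 16.9%, 17.7% and 15.4% of the glue tags in day 11 replicates 1 to 3, and Sgs5, with 16.5%, 12.6% and 14.1%. Within each day 11 library Sgs8 had more tags than Sgs5, with 164 against 160, 128 against 91 and 1295 against 1188 counts. At day 5 their order varied, with 7 against 3, 26 against 26 and 2 against 6 counts, and it was not tested. Sgs4 made up 6.20%, 6.63% and 4.64%. The share of Sgs1 was 3.51% in day 11 replicate 1 (exact 95% binomial interval 2.44 to 4.87%), 1.93% in replicate 2 (1.06 to 3.22%) and 1.28% in replicate 3 (1.05 to 1.55%). The first and last of these intervals do not overlap, so the library with the most glue RNA did not have the largest share of Sgs1.

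At day 5 the shares were less precise. Sgs3 made up 50.0% of 62 glue tags in replicate 1 (37.0 to 63.0%), 31.3% of 144 in replicate 2 (23.8 to 39.5%) and 48.7% of 39 in replicate 3 (32.4 to 65.2%). Pooled over the day it was 38.8% (32.6 to 45.2%) against 32.8% (31.9 to 33.7%) at day 11. Sgs7 was 26.9% against 30.8%, Sgs5 14.3% against 14.2%, Sgs8 14.3% against 15.7%, and Sgs4 5.71% against 4.93%. The pooled intervals of the 2 days overlapped for each of these 5 genes. Replicate 2 supplied 144 of the 245 pooled day 5 tags. By library, the Sgs3 interval of day 5 replicate 1 lay above those of all day 11 libraries, which reached at most 34.96%. That of day 5 replicate 3 lay above day 11 replicate 2, which ended at 31.18%. The Sgs5 interval of day 5 replicate 1 ended at 13.5%, below that of day 11 replicate 1, which began at 14.24%. All other library intervals of these genes overlapped between days.

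**Figure D2:**
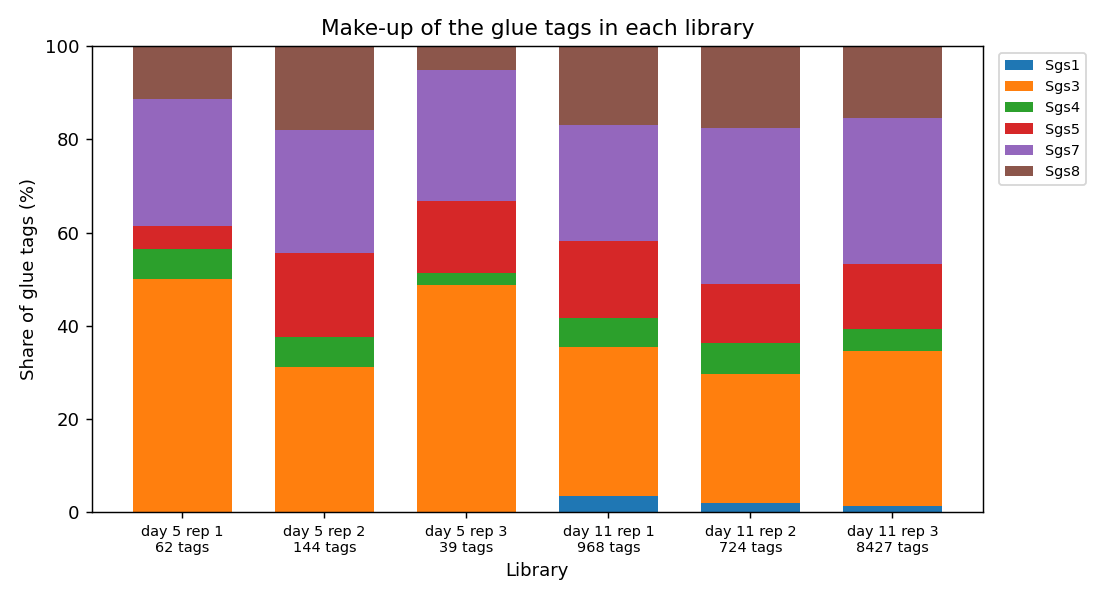
Share of each gene in the summed glue tags (percent) of every library, with the number of tags under each bar. Sgs3 and Sgs7 lead in all 6 libraries, from 39 tags in day 5 replicate 3 to 8427 in day 11 replicate 3, and Sgs1 appears at day 11.

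Day 11 replicate 3 differed from the other day 11 libraries in few other genes to this extent. Of 6299 tested genes with a day 11 mean of at least 5 CPM, 7 were at least 5-fold above the mean of the other libraries there. They were the 6 glue genes and Eig71Ee, and the median ratio over the 6299 was 0.983. This limit of 5-fold was chosen after the values were seen. Eig71Ee had 1.72, 0.843 and 1.39 CPM at day 5 and 17.6, 6.15 and 90.0 CPM at day 11, so that replicate 3 stood 7.59-fold above the others. Its log2 fold change between days was 4.84 (SE 1.39, edgeR adjusted p = 0.0573), not past the threshold of 0.05; the adjusted p ranged from 6.31e-05 to 0.182 over 14 other settings and passed in 4 of them.

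**Figure D3:**
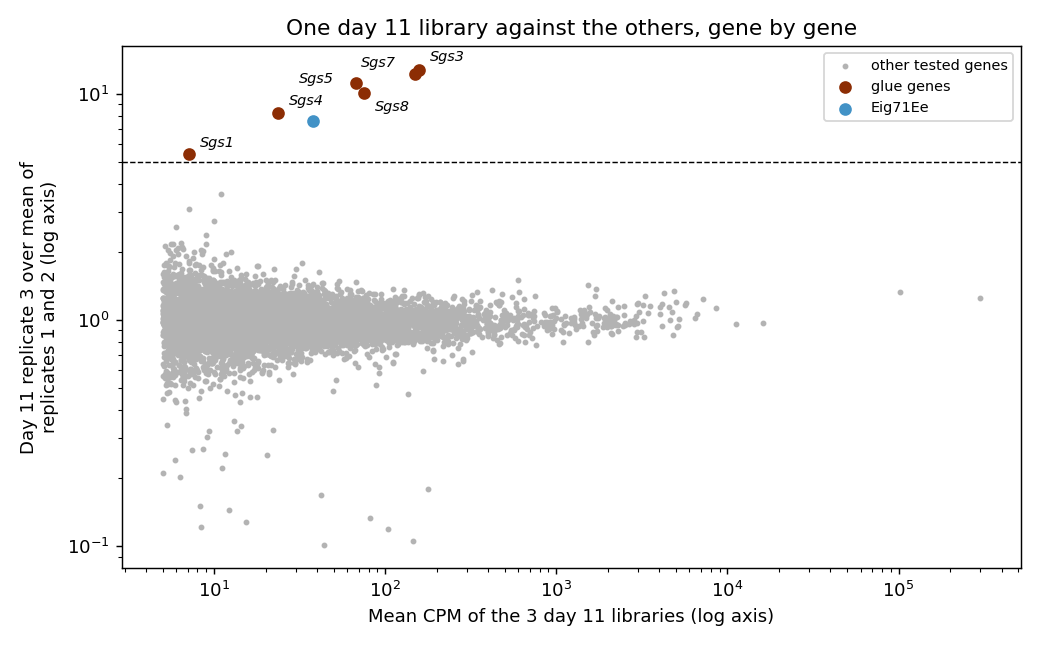
Each of 6299 tested genes by its mean CPM at day 11 (horizontal, log axis) and by the ratio of day 11 replicate 3 to the mean of replicates 1 and 2 (vertical, log axis); the dashed line marks 5-fold. The 6 glue genes (brown, 5.42 to 12.8) and Eig71Ee (blue, 7.59) lie above the line, away from the other genes.

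Ranking genes by correlation named others. By Pearson correlation of log2(CPM + 1) with the summed glue genes over the 6 libraries, the 5 most similar of 6299 genes compared were CG42259 (r = 0.984), Rab18 (0.983), CG3164 (0.981), dl (0.978) and snoRNA:229 (0.978). The libraries form a cluster for each day, so these values mix the day difference with the spread within days. For deviations from the day means over the 6 libraries, the 10 most similar ran from CR44417 (r = 0.975) to CG1146 (0.959), with CG32250, Mcm3, RpII15, CG2277, l(2)gl, CG9850, Pdp1 and wus between them. All these genes varied far less than glue. Their highest day 11 level was 1.16 to 1.65-fold above the mean of the other day 11 libraries, apart from snoRNA:229 at 2.74-fold. The correlations are over 6 points that share library depth, and 16 genes had r above 0.95 for the deviations.

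Genes that precede the main glue genes in normal development were most abundant in day 5 replicate 2. Pig1 and the new glue genes ng1 to ng4 lie beside Sgs4 on X and are active in salivary glands earlier in the last larval stage. Together they had 26, 147 and 10 counts in day 5 replicates 1 to 3 and 4, 17 and 27 counts at day 11. Day 5 replicate 2 held most of them, with 84 counts of Pig1, 44 of ng3, 11 of ng1 and 8 of ng2, and ng4 had none in any library. Only Pig1 passed the filter on low counts, with 4.16 ± 5.19 CPM at day 5 and 1.84 ± 1.51 CPM at day 11 (SD, n = 3 each; log2 fold change -1.23, SE 1.14, edgeR adjusted p = 0.444). Its direction rested on day 5 replicate 2: the ratio of means, day 11 over day 5, was 0.442 with that library and 1.56 without it. Without it the fitted log2 fold change was 0.60 (edgeR adjusted p = 0.652). The summed levels of these early genes were 3.44, 17.7 and 1.26 CPM at day 5 and 0.428, 2.61 and 3.92 CPM at day 11, so the days overlapped. Of 19 other salivary secretion genes listed, 12 had a count and 3 were tested (Eig71Ee, Sgs5bis and Pig1). Of these 3, 0 were called by edgeR, beside 37.0% of all 8010 genes tested. DESeq2 called 2 of the 3, beside 2901 of all genes tested, so little can be read from this list. The mucin gene Muc26B had 31 counts in day 5 replicate 2 and 0 in the other libraries.

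Set against the glue tags, these early genes had a large share at day 5 and a small one at day 11. They were 29.5%, 50.5% and 20.4% of the early and glue tags combined in day 5 replicates 1 to 3. At day 11 they were 0.412%, 2.29% and 0.319%. The glue genes in this share were chosen on the day difference, which lowers it at day 11 by itself, so nothing is read from the difference between days.

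The tags of Pig1 and Sgs4 can be set side by side at one locus. Their starts face away from each other and are 800 bases apart. Pig1 made up 76.5% of the pair's tags in day 5 replicate 1 (13 of 17), 90.3% in replicate 2 (84 of 93) and 83.3% in replicate 3 (5 of 6). At day 11 it made up 4.76% (3 of 63), 20.0% (12 of 60) and 5.56% (23 of 414). Pig1 led the pair in every day 5 library and Sgs4 in every day 11 library, although the interval of day 5 replicate 3 was wide, at 35.9 to 99.6%. Sgs4 was chosen on its day difference and Pig1 was not called, so this order of the pair is a description of the Sgs4 counts as much as of Pig1.

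In the other facing pair Sgs7 led in every library. Sgs8 made up 29.2%, 40.6% and 15.4% of the tags of Sgs8 and Sgs7 at day 5 and 40.5%, 34.6% and 32.9% at day 11. The interval of every day 5 library overlapped those of all day 11 libraries.

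Sgs5bis, listed as CG7587, is a paralog of Sgs5 that ends 304 bases before it on the same strand. It had 17, 2 and 0 counts at day 5 and 40, 49 and 146 counts at day 11 (log2 fold change 3.73, SE 1.17, edgeR adjusted p = 0.0532, not called; 0.0108 to 0.171 over 13 other settings, called in 3). It took 85.0%, 7.14% and 0% of the tags of the pair in day 5 replicates 1 to 3 and 20.0%, 35.0% and 10.9% at day 11. Day 5 replicate 1 stood apart, with more Sgs5bis than Sgs5 tags. The sources used here do not say to which paralog ambiguous reads went, so the split within this pair is uncertain.

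**Figure D4:**
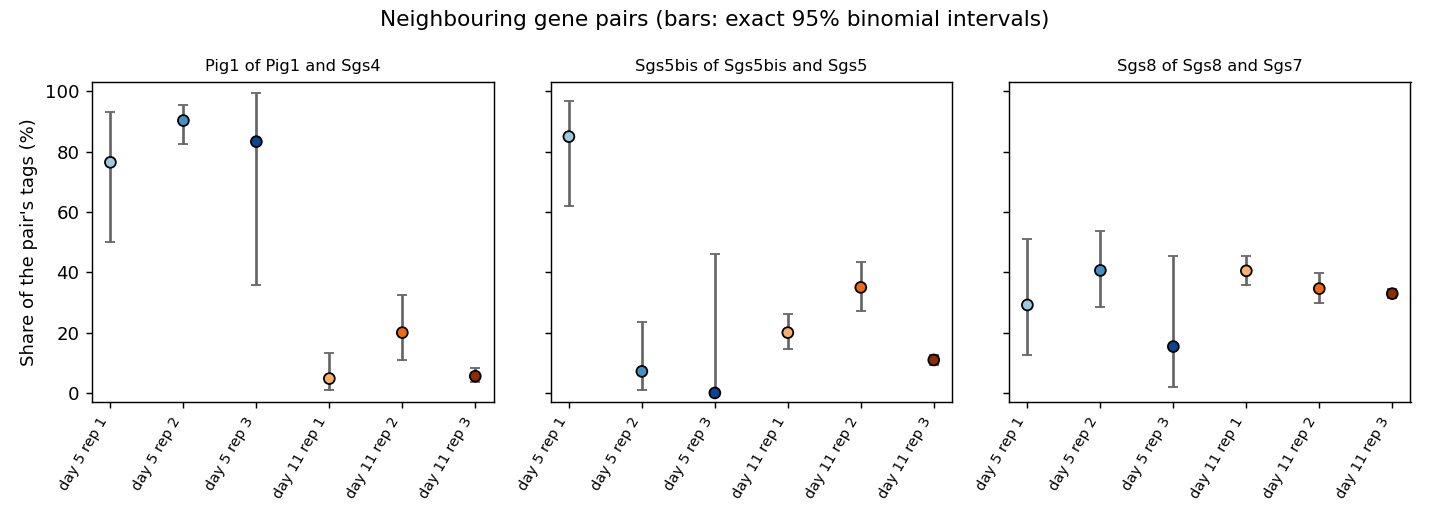
Share of the first-named gene in the tags of a neighbouring pair (percent) in each library, with exact 95% binomial intervals. Pig1 leads Sgs4 at 76.5 to 90.3% at day 5 and stands at 4.76 to 20.0% at day 11, whereas Sgs8 stays below Sgs7 throughout and Sgs5bis is above Sgs5 in day 5 replicate 1.

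On the other side of Sgs5, 423 bases after its end, lies the uncharacterised gene CG7606. It had 2, 1 and 2 counts at day 5 and 22, 65 and 101 counts at day 11, with means of 0.213 ± 0.0801 and 9.01 ± 6.22 CPM (SD, n = 3 each). CG7606 rose, with an edgeR adjusted p of 0.000723 and a log2 fold change of 5.30 (SE 0.80), and the call held in 13 other settings. Its day 11 levels of 2.35, 9.99 and 14.7 CPM differed less between libraries than those of Sgs5. The remaining neighbours were low or at 0. CG33272, beside Sgs7 and Sgs3, and CG7512, beside Sgs3, had 0 counts in all libraries. CG33500, which ends 63 bases from the end of Sgs8, had 0, 4 and 2 counts at day 5 and 2, 5 and 3 at day 11. The neighbours of Sgs1, hoe2 and synr (listed as CG14044), had at most 9 counts in a library, and CR44886, beyond Sgs4, at most 5.

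Genes known for their part in salivary gland identity moved in both directions. Several of them, such as hth, exd, eyg and toe, are also disc genes, and hth alone had 1510 to 1900 CPM. Of 14 listed identity genes 10 were tested, of which 2 rose and 2 fell, or 40.0%. This is close to the share over all genes tested, of which 37.0% were called between the days, with 1533 (19.1%) higher and 1432 (17.9%) lower by edgeR at adjusted p below 0.05. With total-count scaling 865 were higher and 2207 lower. The median log2 fold change of the 10 was 0.10. The gland's transcription factor genes fkh and sage, which act on glue gene promoters, were low and not called. fkh had 21, 8 and 5 counts at day 5 and 19, 13 and 6 at day 11, and was lowest in replicate 3 within each day. sage had 29, 38 and 39 counts at day 5 and 42, 36 and 47 at day 11. Unlike fkh, it was highest in replicate 3 within each day, at 4.93 CPM at day 5 and 6.83 CPM at day 11. The prolyl hydroxylase genes PH4alphaSG1 and PH4alphaSG2, named for the gland, had at most 2 and 9 counts in a library and were not tested. PH4alphaSG1 had 2, 1 and 0 counts at day 5 and 0 in every day 11 library. PH4alphaSG2 had 0 counts at day 5 and 7, 9 and 5 at day 11. The identity gene hkb was at 0 in all libraries.

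Among the called identity genes, the splicing factor gene ps rose from 352.1 ± 25.1 to 681.0 ± 34.9 CPM (SD, n = 3 each; log2 fold change 0.95, SE 0.11, edgeR adjusted p = 8.57e-05). Scr, the homeotic gene that specifies the gland, rose from 0.661 ± 0.591 to 3.42 ± 1.08 CPM (log2 fold change 2.32, adjusted p = 0.0234). Its highest level, 4.65 CPM, was in day 11 replicate 3, and the call was lost without day 5 replicate 2 or without day 11 replicate 3, with adjusted p up to 0.108. CrebA, which drives secretory pathway genes, fell (log2 fold change -0.71, SE 0.13, adjusted p = 0.00159), and so did the homeobox cofactor gene exd (-0.60, SE 0.12, adjusted p = 0.00282). In day 11 replicate 3 the tested identity genes stood at 0.433 to 1.66 times the mean of the other day 11 libraries.

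Of the glue gene regulators, a list of ecdysone-response and gland transcription factors, 3 of 14 tested rose and 1 fell, or 28.6%, beside 37.0% of all genes tested. Eip93F, a late ecdysone-response factor, rose to near-equal levels of 305.2, 306.8 and 312.4 CPM in the day 11 libraries from 1.93 to 5.56 CPM (log2 fold change 6.41, SE 0.29, edgeR adjusted p = 6.34e-07). The nuclear receptor gene ftz-f1, which acts after the ecdysone pulse, rose by 0.84 (SE 0.13, adjusted p = 0.000507). Eip75B, an early response nuclear receptor gene, rose by 0.55 (SE 0.13, adjusted p = 0.00512), a call lost with total-count scaling (adjusted p = 0.254). Eip74EF, an early response factor gene, fell (log2 fold change -0.83, SE 0.24, adjusted p = 0.0183), a call lost without day 5 replicate 1 or day 11 replicate 3, with adjusted p up to 0.0782.

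The hormone receptor and broad genes, both needed for glue gene activity in glands, were not called. The log2 fold change was 0.17 for EcR (95% interval -0.07 to 0.42, edgeR adjusted p = 0.254) and 0.07 for br (-0.19 to 0.32, adjusted p = 0.678). Hr3, listed as Hr46, was not tested and had 0 counts at day 5 and 12, 9 and 10 at day 11. The tested regulators in day 11 replicate 3 were at 0.433 to 1.62 times the mean of the other day 11 libraries, none near the ratios of the glue genes.

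Genes for mucin sugar chains and for glue granules are used in many tissues. Of 41 tested, 5 rose and 3 fell, or 19.5%, beside 37.0% of all genes tested, with a median log2 fold change of 0.10. With total-count scaling 1 rose and 4 fell, so the balance of rises and falls depended on the scaling. The called number was 3 without day 5 replicate 1, 4 without day 5 replicate 2, 5 without day 5 replicate 3 and 4 without day 11 replicate 3. Syt1, a calcium sensor of regulated secretion that neurons also use, rose from 11.8 ± 0.672 to 58.6 ± 14.1 CPM (SD, n = 3 each; log2 fold change 2.32, SE 0.19, edgeR adjusted p = 5.6e-06). The exocyst gene Sec8 rose by 0.55 (adjusted p = 0.0126), the kinase gene Rok by 0.44 (adjusted p = 0.0355) and the trafficking gene Rab7 by 0.37 (adjusted p = 0.0407). These calls were lost in 2, 6 and 8 of 14 other settings.

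The falls in this list were those of fwe (log2 fold change -0.72, edgeR adjusted p = 0.00844), of the O-glycosylation enzyme gene pgant6 (-1.24, adjusted p = 0.00962) and of Rab6 (-0.54, adjusted p = 0.0361, lost in 5 of 14 other settings). The gene for pgant9, an enzyme that adds sugars to Sgs3 in glands, is listed as CG30463 and was not called (log2 fold change 0.25, 95% interval -0.20 to 0.70, adjusted p = 0.361). Another gene of this enzyme family, pgant4, had 1 count in all. The highest ratio of day 11 replicate 3 to the other day 11 libraries among the 41 was 1.74.

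Markers of other larval tissues also varied between libraries. Fat body serum protein and Fbp genes summed to 637.5, 302.0 and 63.5 CPM in day 5 replicates 1 to 3 and to 73.8, 963.3 and 118.6 CPM at day 11. Ecdysone synthesis genes of the ring gland (phm, dib, sad, nvd, spo, spok and sro) summed to 22.8, 102.0 and 382.9 CPM at day 5 and to 8.56, 57.2 and 6.40 CPM at day 11. Day 11 replicate 3, highest in glue, was thus lowest in ring gland genes and well below day 11 replicate 2 in fat body genes.

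Muscle and trachea markers, all 11 with counts, summed to 362.8, 928.0 and 341.3 CPM at day 5 and to 272.7, 336.0 and 199.5 CPM at day 11. Day 5 replicate 2, the highest day 5 library in glue, was also the highest of all 6 in these. Gut and proventriculus markers, 13 of 15 with counts, summed to 4.37, 20.0 and 2.78 CPM at day 5 and to 15.6, 31.8 and 11.5 CPM at day 11. They were highest in replicate 2 within each day, and highest of all in day 11 replicate 2. Both gammaTry and Npc2d were at 0 in all libraries.

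All 9 haemocyte markers had counts and summed to 91.4 to 121.6 CPM at day 5 and to 128.7, 327.3 and 211.5 CPM in day 11 replicates 1 to 3. All 10 brain and neuroblast markers had counts and summed to 462.9 to 560.8 CPM at day 5 and 617.5 to 864.0 CPM at day 11. Between days 1 of 8 tested fat body genes, 1 of 7 on the ring gland list and 1 of 3 gut genes rose. So did 3 of 7 haemocyte and 3 of 8 brain genes, whereas 1 of 8 brain and 1 of 9 muscle and trachea genes fell. Over all genes tested 19.1% rose and 17.9% fell. The riser on the ring gland list was Ptth (log2 fold change 2.92, edgeR adjusted p = 0.00703). The other tested genes of that list, phm, sad, nvd, spok, sro and Akh, had negative log2 fold changes and were not called. None of the lists for fat body, ring gland, gut, haemocytes, brain or muscle had its highest day 11 sum in replicate 3. The part that salivary gland tissue or any of these tissues has in the glue counts was not tested.

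**Figure D5:**
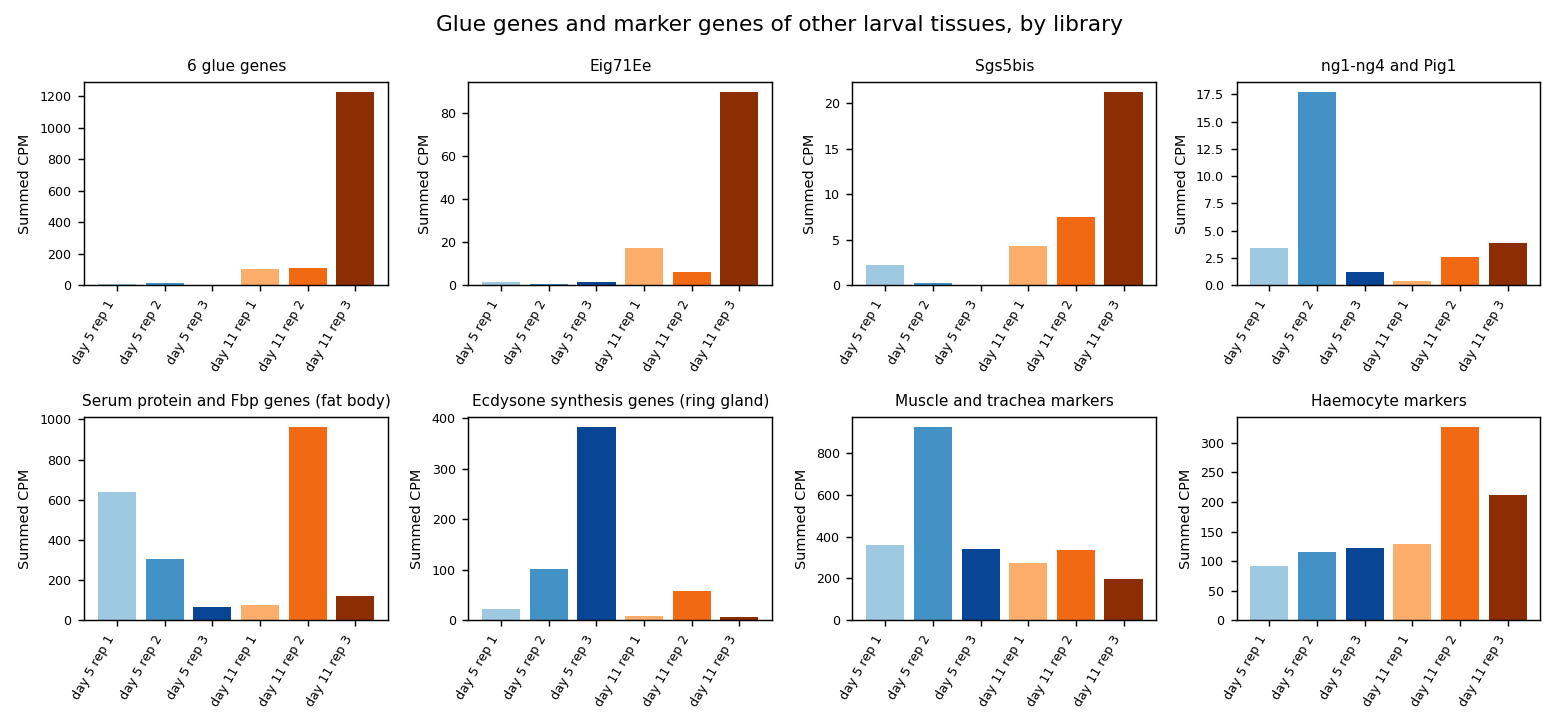
Summed CPM in each library (blue, day 5; orange to brown, day 11) for the 6 glue genes, Eig71Ee, Sgs5bis, the early genes ng1 to ng4 with Pig1, and marker genes of other larval tissues; each panel has its own vertical axis from 0. Glue, Eig71Ee and Sgs5bis peak in day 11 replicate 3, the early genes and muscle markers in day 5 replicate 2, fat body and haemocyte genes in day 11 replicate 2, and ring gland genes in day 5 replicate 3.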

How the data were processed

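The authors deposited one table of raw read counts, whole numbers for every gene in each library. Per the labels' protocols, polyadenylated RNA went into a forward-strand QuantSeq kit. Per the submitters' processing notes, FastQC, cutadapt, STAR 2.6.1d and dm6 were used. The sources used here do not give the counting program, annotation, strand setting or handling of multiply matching reads. Samples were grouped by the day in their titles.

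After filterByExpr and TMM scaling, day 11 was compared with day 5 by edgeR 4.0.16's two-sided quasi-likelihood test (R 4.3.3) with Benjamini-Hochberg adjustment over 8010 genes and a threshold of 0.05. SEs were derived from the F statistics. Shares have exact (Clopper-Pearson) 95% intervals (SciPy 1.17.1). The floor is 3 counts, or 0.332 to 0.459 CPM of all counts before TMM scaling. Tested on counts simulated for this comparison with 200 changed genes, 53% of 2-fold and 94% of 4-fold changes were recovered. There were 8 false calls of 155 among 7874 genes. In the data 2965 of 8010 genes were called, a far larger part, so these rates need not hold there. Alternatives were DESeq2 1.42.0, other scalings and filters, glue genes left out of library sizes, fits with replicate number as a block, and fits that drop one library.

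The members and lists were chosen with earlier results of these data known. Named genes are the members, up to 4 called genes with the smallest p in each direction per list, each member's annotated neighbours, and the genes most like the summed glue genes; other genes were named after their values were seen. The lists contain genes active in many tissues (larp, Desat1, brat, crq). All list symbols were found, through RefSeq synonyms where needed.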

Additional observations from a re-analysis of the deposited data

How the results depend on the processing

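The number of genes called between days was 2965, and stayed within 1.5 times that number under all alternatives, from 2202 to 3008 with a library left out. The median log2 fold change of the 6 glue genes was 5.59 and ran from 3.52 (without day 11 replicate 3) to 6.58 (without day 5 replicate 2) with a library left out; its sign was the same in every setting run. With a minimum of 5 CPM in 3 libraries Sgs1 was not tested and the median was over the other 5. Called mucin and granule genes numbered 8, against 5 with total-count scaling and 3 to 8 with a library left out. Called regulators numbered 4, and 3 to 5 with a library left out; called salivary gland identity genes numbered 4, and 3 to 4. Across all tested genes the median was -0.01, and -0.28 with total-count scaling. Libraries with the same replicate number had correlations of their deviations across genes of 0.0497, 0.194 and -0.0858. Those with different numbers ranged from -0.23 to 0.166. These few values cannot settle whether libraries of one number share a culture or batch, so the main fit has no block. With a replicate block 2940 genes were called and the glue median was 4.86. Called in that fit were 4 regulators, 6 mucin and granule genes and 4 identity genes. Depth limits the day 5 values most, where single glue genes rest on 0 to 45 counts.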
